A study of Mus musculus with 6 samples.

Results

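Hox genes encode the homeodomain transcription factors that give cells their position along the body axis, and they lie in 4 clusters, A to D. Here 33 Hox genes were followed in mammary epithelial organoids of mice with and without Wwox. Members were all genes whose symbol is Hox, a cluster letter and a number and that had at least 1 Affymetrix probe set naming them alone. They were 33 of the 39 Hox genes of the reference gene table and 33 of 18193 genes measured in this way, with 9 genes in cluster A, 9 in B, 7 in C and 8 in D. Hoxb8 and Hoxd4 were matched only by probe sets shared with a neighbouring Hox gene, and the other 4 are not analysed here. Each gene was read on its brightest probe set, judged by its mean value on all 6 arrays. Organoids, pieces of duct and alveolus that remain once the gland is digested, came from 3 WWOX-WT mice without Cre (BK5-cre -, arrays WT1, WT2 and WT3) and 3 WWOX-KO mice with it (BK5-cre +, arrays KO5, KO6 and KO7), 1 array per mouse. All mice were 8 weeks old, on a mixed 129/J and C57BL/6 background, and all were WWOX flox/flox. Cre was driven by the bovine keratin 5 promoter, which is active in basal cells of many epithelia from before birth. No mouse with Cre and intact Wwox was on an array, so Cre itself and loss of Wwox cannot be told apart.

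Within a cluster the genes are numbered from the end that is switched on first and most anteriorly, and genes with the same number in different clusters are paralogues with closely related homeodomains. HOX proteins bind DNA with PBX, MEIS and PKNOX cofactors, and the clusters are held silent by Polycomb and kept active by trithorax complexes. In the mammary gland the paralogues of group 9 are known to be needed together for growth of the gland in pregnancy. HOXD10 is known to favour the differentiated, non-migrating state of breast epithelium. HOXA5 is often lost, and HOXB7 and HOXB9 are often raised, in breast cancer.

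No Hox gene passed the limits of a call, p under 0.01 with a change of at least 2-fold. The study gives these limits without saying whether p was adjusted, and limma's unadjusted p was used here. The changes centred close to 0, with a median log2 change of -0.06 in KO, the same as that of all genes (-0.06). The differences that stood out most were at Hoxd10 and Hoxd13 of cluster D, which were lower in KO, and at Hoxb9, which was higher. All 3 were modest, at 0.65, 0.75 and 1.37 times the WT level. The Hoxd13 difference was seen on only 1 of its 2 probe sets. By limma the adjusted p was 0.144 for Hoxd10, the lowest of any Hox gene. Across all genes 0.517% were called higher and 0.462% lower, so that 0 calls among 33 is no departure from the array. At an unadjusted p under 0.05 by limma, 1 Hox gene was higher and 2 were lower, against 6.17% and 13% of all genes. With all 6 arrays this share lies below that of the array, as it does for the 11 Hox genes with a mean log2 value of at least 6, of which 1 passed against 26.3% of all such genes. Counted over all 48 Hox probe sets, 4 passed, against 19.3% of all probe sets, and 0 were called. Without WT1 the count at that limit was 9 of 33, 1 higher and 8 lower, and 25.0% of all genes passed, so that the Hox share was then not below that of the array. Without KO5 it was 1 of 33, against 13.7% of all genes.

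**Figure D1:**
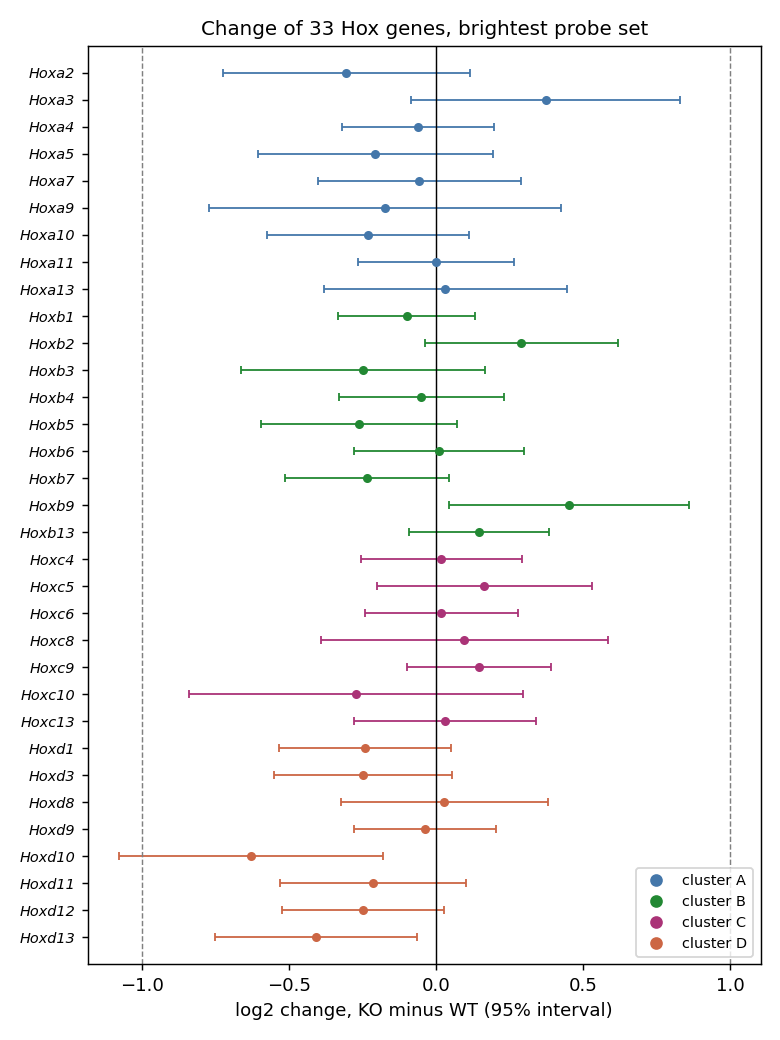
Log2 change (KO minus WT) of the 33 Hox genes on their brightest probe set, in the order of the clusters; points are limma estimates, bars their 95% intervals, and dashed lines mark a 2-fold change. Intervals leave out 0 for Hoxb9, Hoxd10 and Hoxd13, and the interval of Hoxd10 alone reaches past 2-fold, at -1.08.

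Most Hox genes, like most genes, had narrow intervals on the probe set used. The intervals cover the spread among mice and not the disagreement between probe sets of a gene given below. For 32 of 33 the 95% interval of the log2 change lay wholly within 2-fold in either direction, against 87.6% of all genes. The estimate was under 0.5 in size for 32 of 33, and for 15838 of all 18193 genes. The median standard error was 0.14, and the median size of the change was 0.17 among Hox genes and 0.18 among all genes. Only 11 of the 33 had a mean log2 value of at least 6, and such dim probe sets compress true differences. The deposited values hold no detection calls, so a low value does not show that a gene was silent.

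Wwox itself, the targeted gene, lay at 7.77, 7.63 and 7.72 in WT and at 6.23, 5.87 and 5.96 in KO on its brightest probe set, a log2 change of -1.69 (adjusted p = 0.0228 by limma). RNA quality moved with the groups. The gap between 3′ and 5′ probe sets of Gapdh was 0.95 to 2.41 on the log2 scale in WT and 0.40 to 0.56 in KO, and that of β-actin 0.98 to 1.85 and 0.63 to 0.71 (p = 0.1 in each case by a two-sided exact permutation test, whose floor with 3 against 3 arrays this is). Markers of other cells moved as well. In bulk RNA a change in the number of cells of a type and a change in RNA per cell cannot be told apart. Of 12 fibroblast markers, 4 were higher with limma's unadjusted p under 0.05 (Col1a1, Col1a2, Col3a1 and Vim) and 0 lower. Over all genes 6.17% were higher and 13% lower at that limit. Col1a1, at 2.70 times the WT level, also passed the limits of a call. The summed level of the 12 (log2 of the sum on the linear scale) ran from 15.15 to 15.24 in WT and from 15.36 to 15.89 in KO. The list was split, with 8 positive and 4 negative changes and a median of 0.12. The negative ones were Thy1 (-0.53), Twist1 (-0.36), Fap (-0.32) and Pdgfra (-0.18). Of 10 endothelial markers, 6 were higher and 0 lower, with summed levels of 12.68 to 13.21 and 13.35 to 13.80. All 10 leukocyte markers had negative changes, 0 of them at that limit, and their summed levels overlapped, at 12.21 to 13.62 and 12.25 to 12.80. Basal epithelial markers, at 13.69 to 14.00 in WT and 13.77 to 14.07 in KO, and luminal ones, at 16.40 to 16.64 and 16.62 to 16.67, were bright in every sample. RMA values have no zero, so no marker can be given as absent. Adipocyte markers (8 genes) had summed levels of 14.14 to 14.34 in WT and 14.42 to 14.49 in KO, without overlap. Skin keratinocyte markers (8 genes) had 8.28 to 8.96 and 8.22 to 8.24, also without overlap. The genes of these lists did not move together, with 4 positive and 4 negative changes and a median of 0.01 in each. The adipocyte sum rests mostly on Fabp4, with a mean of 14.17 against 10.60 for Lpl, the next brightest. The part of these markers in the Hox values was not tested. RNA quality, as the mean of the Gapdh and β-actin gaps, was entered as a covariate, under which Wwox was at -1.81. Among the Hox genes known from breast tissue, Hoxa5 then went from -0.21 to 0.14 and Hoxa10 from -0.23 to 0.03, both with the sign turned. Hoxc8 went from 0.10 to 0.41, Hoxc6 from 0.02 to 0.21 and Hoxd3 from -0.25 to -0.11, and 0 of the 33 genes were then at an unadjusted p under 0.05 by limma, against 5.16% of all genes.

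Cluster D had the widest departure from 0 of the 4 clusters. Its 8 genes had a median log2 change of -0.25, and 7 of 8 were negative, against 11127 of 18193 among all genes. The medians of clusters A, B and C were -0.06, -0.05 and 0.03, with 7 of 9, 5 of 9 and 1 of 7 genes negative. With the median taken over the cluster's genes of the deviation from the 6-array mean, cluster D lay at 0.04, 0.25 and 0.04 in WT1, WT2 and WT3 and at -0.14, -0.11 and -0.12 in KO5, KO6 and KO7. The WT arrays all lay above the KO arrays, WT2 by the most. The Gapdh difference was 0.95, 2.41 and 1.79 in WT1, WT2 and WT3, and that of β-actin 0.98, 1.85 and 1.82. A link between RNA quality and cluster D by array was not tested. The cluster's median was -0.083 with RNA quality as a covariate, and -0.037 over the 3 genes with a mean of at least 6.

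The sequences just upstream of 3 cluster D genes are shown because Hoxd10 and Hoxd13 were the lower ones and Hoxd9 lies next to Hoxd10 and differed by only -0.04. Each is the 250 bases before the transcription start on the plus strand, from RefSeq (GRCm38.p6). Capitals mark the CCAAT box (CCAAT, on either strand) and the TATA box core (TATAAA, on either strand).
Hoxd9, chr2:74697513-74697762: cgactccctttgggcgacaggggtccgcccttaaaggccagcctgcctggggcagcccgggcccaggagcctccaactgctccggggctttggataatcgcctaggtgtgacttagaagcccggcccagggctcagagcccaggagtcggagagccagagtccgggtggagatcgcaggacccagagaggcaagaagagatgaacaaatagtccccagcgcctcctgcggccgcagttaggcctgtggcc
Hoxd10, chr2:74691641-74691890: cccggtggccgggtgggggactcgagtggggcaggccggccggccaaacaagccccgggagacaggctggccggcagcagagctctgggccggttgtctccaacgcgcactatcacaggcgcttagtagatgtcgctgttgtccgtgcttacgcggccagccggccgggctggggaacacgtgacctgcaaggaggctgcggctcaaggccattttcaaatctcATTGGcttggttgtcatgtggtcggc
Hoxd13, chr2:74667975-74668224: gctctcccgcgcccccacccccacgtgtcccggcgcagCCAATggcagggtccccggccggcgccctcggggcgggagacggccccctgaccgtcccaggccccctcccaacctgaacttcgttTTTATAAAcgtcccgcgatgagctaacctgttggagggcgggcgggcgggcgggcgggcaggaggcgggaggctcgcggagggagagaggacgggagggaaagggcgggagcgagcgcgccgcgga
All 3 are rich in G and C, at 65.2%, 65.6% and 74.4%, against a median of 52.4% over 32841 promoter windows of the same length. The Hoxd10 and Hoxd13 windows each hold 1 CCAAT box and the Hoxd9 window 0, and 33.9% of all windows hold at least 1. The TATA core was found in the Hoxd13 window alone of these 3, as a pair of overlapping matches on opposite strands, and in 12.4% of all windows. The homeodomain core TAAT, searched on both strands, was found in the Hoxd9 window and not in the other 2, and in 54.9% of all windows. Elsewhere in cluster D, CCAAT was found in the windows of Hoxd1, Hoxd3, Hoxd8 and Hoxd12 and in neither window of Hoxd11. TAAT was found in those of Hoxd3, Hoxd8, Hoxd11 and Hoxd12 and not in that of Hoxd1. Of these genes Hoxd8 differed by 0.03 and Hoxd11 by -0.22. A link between these matches and the changes was not tested. Of the 33 genes, 19 had a promoter in the table, in 21 windows, of which 16 held TAAT and 11 held CCAAT. Hoxb9 was not among them. These are matches of letters and not shown to be sites.

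Hoxd10 was lower in KO. It lay at 6.31, 6.88 and 6.99 in WT1, WT2 and WT3 and at 6.27, 6.00 and 6.03 in KO5, KO6 and KO7. The groups did not overlap, but WT1 lay close above KO5. The means were 6.73 ± 0.36 (SD, n = 3) among WT and 6.10 ± 0.15 (SD, n = 3) among KO arrays, a log2 change of -0.63 (95% interval -1.08 to -0.18, adjusted p = 0.144 by limma). It was at -0.84 without WT1 and -0.50 without WT3, and at -0.05 with RNA quality as a covariate.

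Hoxd13, a gene of the distal limb and the urogenital tract, lay at 4.87, 5.28 and 4.96 in WT and at 4.50, 4.58 and 4.79 in KO on its brighter probe set. The groups did not overlap, and the log2 change was -0.41 (95% interval -0.75 to -0.07, adjusted p = 0.193 by limma). Its other probe set, at 3.99 to 4.44 in WT and 4.23 to 4.29 in KO, differed by 0.01, so that the difference rests on 1 probe set. The change was -0.29 without WT2, -0.35 without KO5 and -0.39 without KO6. It was -0.20 with the mean of its probe sets and -0.10 with RNA quality as a covariate. In each of these settings it was no longer under an unadjusted p of 0.05 by limma.

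The genes between them, Hoxd11 and Hoxd12, were lower too but short of that limit. Hoxd12 lay at 3.90, 3.65 and 3.82 in WT and at 3.62, 3.57 and 3.43 in KO, without overlap, a log2 change of -0.25 (adjusted p = 0.302 by limma). Hoxd11 lay at 3.24 to 3.57 in WT and 3.10 to 3.37 in KO, with overlap, and differed by -0.22. All 4 of Hoxd10 to Hoxd13 were thus negative, with a median of -0.33, while their 6 measured paralogues of groups 10 to 13 in the other clusters had a median of 0.01 and were negative in 3 of 6. Hoxd11 and Hoxd12 were dim on every array. Of Hoxd10 to Hoxd13 only 1 had a mean log2 value of at least 6, and of the 6 paralogues 0 did. Dim probe sets compress differences, and the contrast with the paralogues was not tested.

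The 3′ neighbours in the cluster did not follow one pattern. Hoxd9 lay at 7.61, 7.60 and 7.55 in WT and at 7.60, 7.45 and 7.59 in KO, a log2 change of -0.04 with a 95% interval from -0.28 to 0.20. Hoxd8 lay at 7.92 to 8.08 in WT and 7.72 to 8.20 in KO and differed by 0.03, with -0.17 on its other probe set. Hoxd3, known for driving the angiogenic state of endothelial cells, lay at 4.05, 4.29 and 3.90 in WT and at 3.78, 3.89 and 3.82 in KO, apart by a narrow gap, with a log2 change of -0.25 (adjusted p = 0.343 by limma). Hoxd1 differed by -0.24, with overlap.

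**Figure D2:**
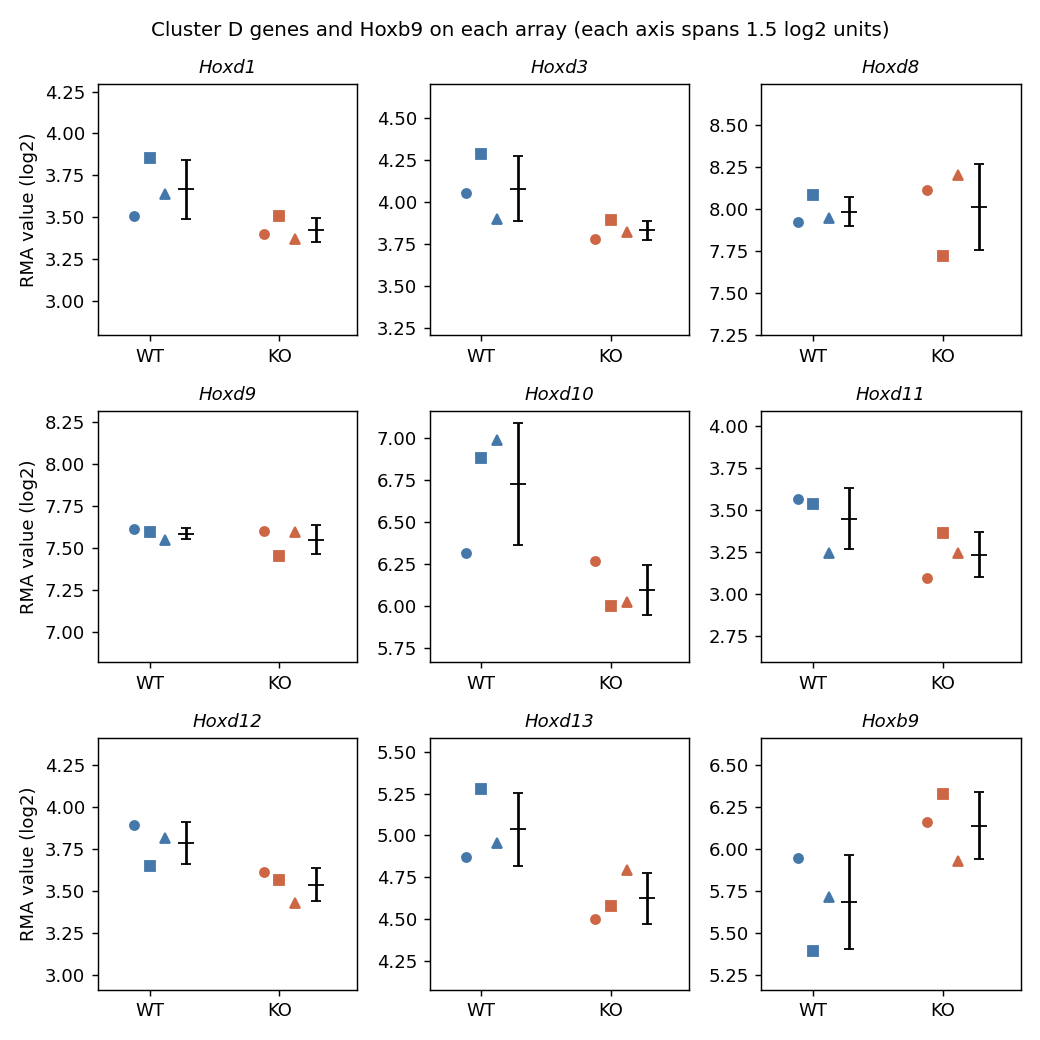
Deposited RMA values (log2) of the 8 cluster D genes and Hoxb9; points are arrays (circle, square and triangle for WT1, WT2, WT3 and for KO5, KO6, KO7), black bars the mean and SD of 3 mice. The KO points of Hoxd3, Hoxd10, Hoxd12 and Hoxd13 all lie below the WT points, for Hoxd3 by a narrow gap. Those of Hoxd9 overlap the WT points, and for Hoxb9 KO7 (5.93) lies just under WT1 (5.95).

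Hoxb9 was the Hox gene with the largest positive change. It lay at 5.95, 5.39 and 5.72 in WT and at 6.16, 6.33 and 5.93 in KO. WT1 lay above KO7, so the groups overlapped, and the log2 change was 0.45 (95% interval 0.04 to 0.86, adjusted p = 0.218 by limma). It was 0.31 without WT2 and 0.00 with RNA quality as a covariate. Among its paralogues, Hoxa9 lay at 5.93, 6.86 and 6.69 in WT and at 6.61, 6.10 and 6.25 in KO, with wide overlap and a log2 change of -0.17 (95% interval -0.77 to 0.42), and with RNA quality as a covariate it was at 0.68. On its other probe set Hoxa9 lay at 5.70, 5.89 and 5.94 in WT and at 5.96, 6.15 and 5.98 in KO, without overlap and higher by 0.19 (adjusted p = 0.441 by limma). Hoxc9 lay at 6.26 to 6.40 in WT and at 6.42 to 6.52 in KO, without overlap, a small difference of 0.15 (adjusted p = 0.492 by limma). With Hoxd9 at -0.04, the 4 genes of group 9 had a median change of 0.05 on their brightest probe sets. Differences between the paralogues were not tested.

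Hox genes known from breast tissue or breast cancer otherwise differed little. Hoxb7 lay at 4.11, 4.15 and 4.19 in WT and at 3.85, 4.10 and 3.80 in KO, without overlap, with KO6 just below WT1 (log2 change -0.23, adjusted p = 0.334 by limma). Hoxc6, which is active in the mammary gland of virgin mice, lay at 6.68, 6.86 and 6.90 in WT and at 6.88, 6.85 and 6.76 in KO, with overlap and a difference of 0.02 with a 95% interval from -0.24 to 0.28. Hoxc8, expressed early along the mammary line of the embryo, lay at 5.21, 5.58 and 5.38 in WT and at 5.92, 5.38 and 5.15 in KO, where KO5 was the highest and KO7 the lowest of all arrays, and differed by 0.10. Hoxb13, a gene of the prostate and hindgut, lay at 4.11, 4.04 and 4.05 in WT and at 4.29, 4.18 and 4.16 in KO, without overlap, a difference of 0.14. Hoxa10, a regulator of the uterus, differed by -0.23 on each of its 2 probe sets, with overlap on the brighter one, at 4.29, 4.49 and 4.77 in WT and 4.40, 4.28 and 4.18 in KO, and none on the other.

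Hoxa5 gave opposite values on its probe sets. On the brighter one it lay at 6.76, 7.01 and 7.41 in WT and at 6.89, 6.78 and 6.89 in KO, with overlap and a log2 change of -0.21 (adjusted p = 0.56 by limma). On the other it lay at 5.84, 5.84 and 5.70 in WT and at 6.35, 6.44 and 5.86 in KO, without overlap and higher by 0.43 (adjusted p = 0.225 by limma). The brighter probe set is of a type that can bind other transcripts too, so neither is preferred here. Such disagreement was common. Of the 11 Hox genes with several probe sets, only Hoxa10 had them all on the same side of 0. The probe sets of Hoxa3 ran from -0.14 to 0.37, those of Hoxb3 from -0.25 to 0.30 and those of Hoxc6 from -0.41 to 0.04.

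**Figure D3:**
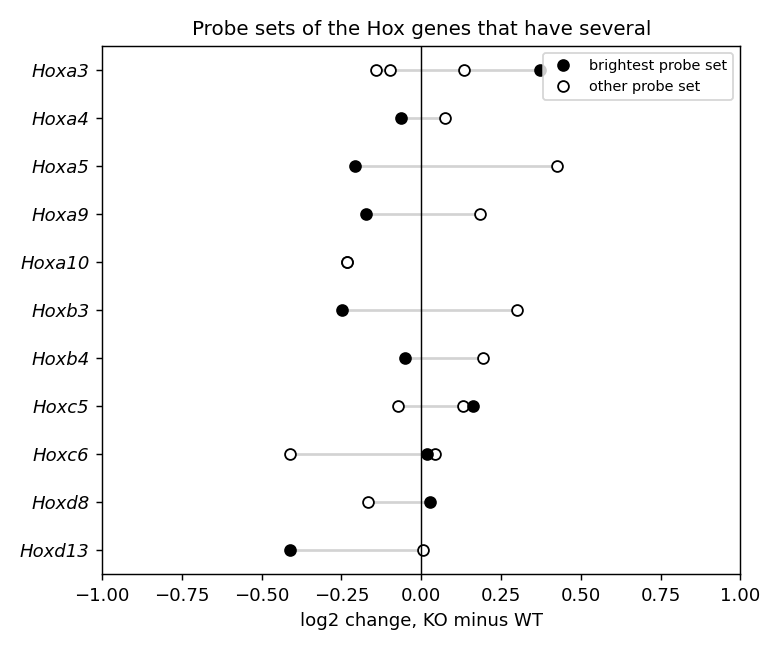
Log2 change (KO minus WT) of every probe set of the 11 Hox genes that have several; filled points are the brightest probe set and open points the others. The grey line joins the probe sets of a gene, and it crosses 0 for all but Hoxa10.

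The remaining members lay between -0.31 and 0.37. At the upper end stood Hoxa3, which patterns the thymus and parathyroid, at 5.10, 5.18 and 5.40 in WT and 5.76, 5.86 and 5.17 in KO. KO5 and KO6 were high and KO7 was not, and the adjusted p was 0.35 by limma. Hoxb2 followed, at 7.63 to 7.91 in WT and 7.83 to 8.22 in KO (0.29). At the lower end stood Hoxa2, a gene of the branchial arches (-0.31), Hoxc10 (-0.27), Hoxb5 (-0.26) and Hoxb3 (-0.25), all with overlap. Hoxa4, Hoxa7, Hoxa11, Hoxa13, Hoxb1, Hoxb4, Hoxb6, Hoxc4, Hoxc5 and Hoxc13 differed by -0.10 to 0.16, all with overlap. In all, 2 Hox genes had every KO array above every WT array and 5 every KO array below, against 7.2% and 16.1% of all genes. The former were Hoxb13 and Hoxc9, and the latter Hoxb7, Hoxd3, Hoxd10, Hoxd12 and Hoxd13.

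By array the Hox genes did not divide cleanly into WT and KO. WT2 and WT3 were each the highest array for 9 of the 33 genes, while WT1 was the highest for 4 and the lowest for 8. KO5 was the lowest for 8, KO7 for 7 and KO6 for 5. The median deviation of the 33 genes was -0.08, 0.06 and 0.08 in WT1, WT2 and WT3 and -0.03, -0.04 and -0.05 in KO5, KO6 and KO7. WT1 thus lay with or below the KO arrays. Its 3′ minus 5′ differences were the lowest of the WT arrays but above those of the KO arrays, and a link by array was not tested. By position along the clusters, groups 1 to 3 had a median log2 change of -0.24 (7 genes), groups 4 to 8 of -0.02 (12 genes) and groups 9 to 13 of -0.11 (14 genes).

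**Figure D4:**
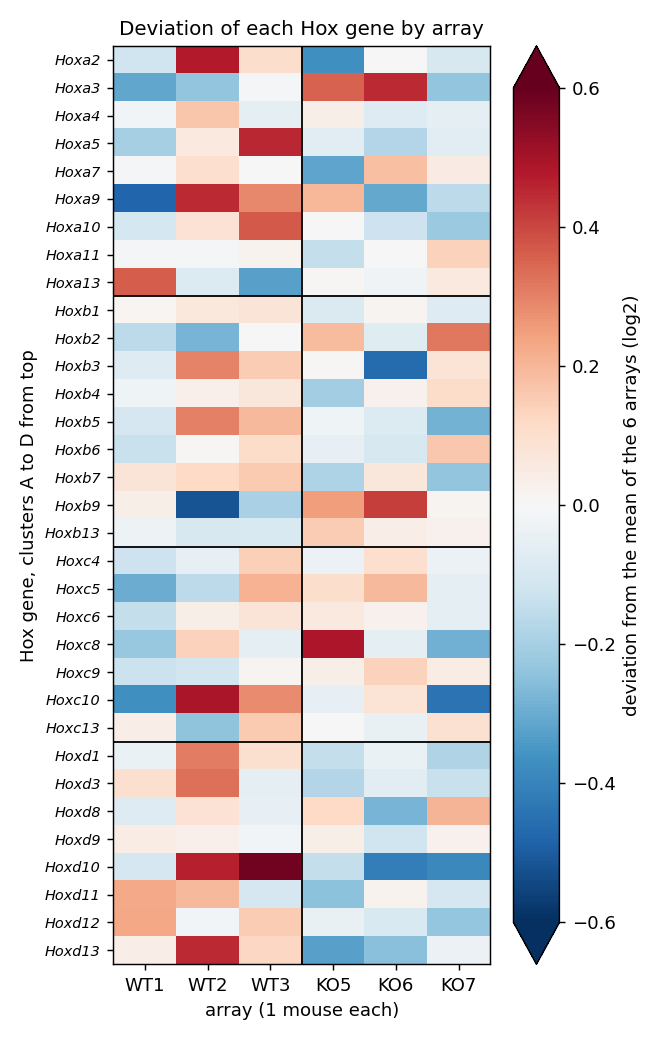
Deviation (log2) of each of the 33 Hox genes from its mean over the 6 arrays, with arrays in columns, clusters A to D from top to bottom, red above and blue below the mean. In cluster D most WT cells are red and most KO cells blue, while in clusters A to C the WT1 column (median deviation over all 33 genes -0.08) often differs from WT2 and WT3.

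Partners and regulators of the clusters were read from lists drawn up from textbook knowledge, whose counts at an unadjusted p under 0.05 stand against 6.17% of all genes higher and 13% lower. Of 8 measured cofactor genes of the PBX, MEIS and PKNOX families, 0 were called and 0 were at an unadjusted p under 0.05 by limma. Their median log2 change was -0.01, with Meis2 at -0.24 and Pbx2 at 0.11 as the extremes and overlap for all 8. Of 19 Polycomb genes and their demethylases, 4 were higher and 3 lower by limma's unadjusted p under 0.05, and 0 were called (median 0.05). Jarid2, a recruiter of Polycomb complex 2, differed by 0.84 (adjusted p = 0.0675 by limma), and Eed, a core subunit of the same complex, by -0.56 (adjusted p = 0.0831). The histone demethylase gene Kdm6b differed by 0.70 and the Polycomb complex 1 gene Phc2 by 0.48. Of 13 trithorax genes, Kmt2b was higher (0.60) and Rbbp5 lower (-0.34) at that limit, with a median of 0.06.

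Retinoic acid is a classic inducer of Hox genes. Of 16 genes of its pathway, 2 were higher and 2 lower with limma's unadjusted p under 0.05, 0 were called, and the median was 0.08. The receptor genes Rara (0.47, adjusted p = 0.1) and Rxra (0.80, adjusted p = 0.113) were higher by limma. Rdh10 (-0.46) and Aldh1a2 (-0.35), whose enzymes make retinoic acid in succession, were lower. Aldh1a2 was dim, with a mean of 4.10. The brighter Aldh1a3 (0.37) and Aldh1a1 (0.26) had positive changes short of an unadjusted p under 0.05. Among 6 genes of proteins that bind or shape Hox chromatin, Creb1 (0.82) and the cohesin loader gene Nipbl (1.07) were higher and Ctcf (-0.32) was lower at that limit, with 0 called.

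Of 13 ParaHox and Hox-linked genes, 1 was lower at an unadjusted p under 0.05, Meox1 (-0.43, adjusted p = 0.212 by limma), and Evx2, which lies beside Hoxd13, differed by 0.11. Of 24 other homeobox genes, 1 was lower, Tgif2 (-0.45), and 0 were higher. Satb1, with the most negative value of that list (-1.56, adjusted p = 0.465 by limma), ran from 6.75 to 10.72 in WT and from 6.49 to 8.97 in KO. Of 17 genes that flank the clusters, 1 was higher and 3 were lower at that limit, with a median of -0.09, and over all genes the shares were 6.17% and 13%. Of the listed genes that flank cluster D, Lnpk and Mtx2 were among the lower ones, while Atp5g3 (-0.09) and Atf2 (-0.12) differed little. Lnpk lay at 6.75, 7.24 and 7.34 in WT and at 6.65, 6.21 and 6.89 in KO (-0.53, adjusted p = 0.251 by limma), with overlap, and Mtx2 at 8.61, 8.72 and 9.04 and at 8.53, 8.16 and 8.47 (-0.40, adjusted p = 0.229), without overlap. Near cluster C, the DNA repair gene Smug1 differed by -0.57 (adjusted p = 0.104) and Cbx5 by 0.27.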

How the data were processed

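RNA of organoids from 6 mice had been hybridised to Affymetrix whole-genome mouse arrays, 1 per mouse. Values deposited by the authors are log2 expression from RMA, whose version is not given in the sources used here. Their methods name simpleaffy for normalization and limma for the statistics. RMA subtracts background, brings the arrays to one distribution and combines the probes of each probe set, so that shifts shared by most genes are removed. The values were used as they stand. Of 45101 probe sets, 64 Affymetrix controls were left out of the tests, and of 45037 tested, 34945 carried 1 gene symbol in the platform annotation, 932 several and 9160 none. The difference KO minus WT was fitted on all 6 arrays by lmFit and eBayes of limma 3.58.1, run in R 4.3.3, with Benjamini-Hochberg adjustment across the 45037 probe sets. The step was tested on simulated data. With 3 arrays per group their number limits the precision. The members and gene lists were chosen with earlier results of these data known. Genes given in full were those called, those at an unadjusted p under 0.05 and a list of Hox genes known from breast tissue. Of each gene list, up to 4 genes with the smallest p under 0.05 were named, and all other Hox genes, the extremes of lists and Evx2 were added after their values were seen. Promoters and gene order came from RefSeq (GRCm38.p6). Alternatives were further normalization, a minimum mean, another prior, array weights, the replicate number as a block, RNA quality as a covariate, each array left out, the mean of all probe sets and other limits. Figures were drawn in matplotlib 3.10.9 (Python 3.11.15).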

Additional observations from a re-analysis of the deposited data

How the results depend on the processing

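In all 16 alternative settings 0 Hox genes were called higher and 0 lower, also at 1.5-fold and at an adjusted p under 0.05 with no fold limit. The 3 Hox genes at an unadjusted p under 0.05 by limma became 7 with array weights, 1 of 11 among genes with a mean of at least 6 and 0 with RNA quality as a covariate, and ranged from 1 to 9 with an array left out. The share of all genes at that limit moved as well, to 23.5%, 22.5% and 5.16% in those settings and to between 12.2% and 25.0% with an array left out. The median log2 change of Hox genes was 0.059 with that covariate, and that of cluster D was -0.083 with it and -0.037 with the filter on the mean. With the mean of all its probe sets Wwox was at -0.85, under 2-fold. Hoxd10 was under an unadjusted p of 0.05 in 13 of 14 settings (-0.84 to -0.05), Hoxd13 in 8 of 13 (-0.49 to -0.10) and Hoxb9 in 7 of 13 (0.00 to 0.58), the RNA quality covariate giving the value nearest 0 for each. The WT and KO arrays do not overlap in that covariate, and Wwox was at -1.81 with it. Same-numbered WT and KO arrays shared only a number, with correlations of their deviations of -0.16, 0.16 and 0.10. With the replicate block Hoxb9 stayed at 0.45 but was no longer under 0.05, and the count of 3 genes was unchanged in size.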

Other observations

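Antisense transcripts of the clusters have probe sets of their own, which the choice of members left out and which were looked at after the Hox values were seen. Hoxb5os, of cluster B, lay at 6.27, 6.27 and 6.78 in WT and at 5.89, 6.39 and 6.82 in KO, with overlap. The probe sets of Hoxd3os1, in cluster D, differed by -0.17 and 0.33, and those of Hoxa11os by -0.01 and -0.15, 0 of these 5 probe sets being at an unadjusted p under 0.05 by limma.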
